A study of Homo sapiens with 4 samples.

Results

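The ATR checkpoint senses single-stranded DNA at stalled replication forks and holds back mitosis and new origin firing until replication is complete. The kinase ATR is carried to RPA-coated DNA by its partner ATRIP. It is switched on by TOPBP1, which works with the RAD9A-RAD1-HUS1 clamp loaded by RAD17, or by ETAA1, which binds RPA itself. Claspin (CLSPN) and TIMELESS then help to pass the signal to the kinase CHK1 (CHEK1), and WEE1 inhibits the cyclin-dependent kinases that drive mitosis. These 10 genes, a given list of ATR pathway members chosen with earlier results of these data known, were found by symbol among 60614 gene IDs, and all 10 passed the filter on low counts.

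RNA-seq counts came from DU145 cells, an established human prostate cancer line, of 2 genotypes. The SPOP-F133V cells carry a form of SPOP, the substrate adaptor of a CUL3 ubiquitin ligase, in which a phenylalanine of the substrate-binding domain is replaced by valine; the others are labelled wild-type. Each genotype had 2 libraries, and both were grown in EMEM medium with serum. The labels do not say whether the mutant cells are a clone, a pool or an overexpression line, nor whether the replicates are separate cultures. The p-values thus cover the spread between these libraries alone, and that spread may be technical. What the mutation does and how the cells were derived cannot be told apart here. The study asked how SPOP mutation alters gene expression in prostate cancer.

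Each library held between 35173245 and 39642063 reads in genes. SPOP was at 1171 and 1151 CPM (reads scaled to library size with TMM factors) in the F133V libraries, against 844 and 906 CPM in the wild-type libraries, which does not show which library carries the mutation. All 5 epithelial markers were read in every library, and their summed level was 2276 and 2448 CPM, without TMM factors, in F133V cells, against 1817 and 1812 in wild-type cells. KLK3, CD3E and DCN had 0 reads in all libraries. Summed hematopoietic, endothelial and fibroblast markers stayed at or below 8.36 CPM. The F133V minus wild-type difference followed transcript GC content (Spearman rho 0.73 across 11766 expressed genes, which are not independent), and so did the difference between F133V replicates 2 and 1 (rho 0.77), whereas the wild-type replicates gave rho -0.07. What lies behind this trend was not tested. Each gene is therefore given from a fit without adjustment and from one adjusted for GC content and transcript length, which also removes any real difference that follows GC content.

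Messenger RNAs for most of the pathway were lower in F133V cells; in bulk RNA, fewer cells that express a gene and less of its RNA per cell cannot be told apart. Without adjustment, 7 of the 10 genes fell, 0 rose and 3 did not pass (edgeR quasi-likelihood test, Benjamini-Hochberg (BH) adjusted over all genes). Of all 17539 tested genes, 27.6% were called lower and 27.2% higher. With GC and length adjusted, 8 of the 10 fell, 0 rose and 2 did not pass, where 24.5% of 17299 tested genes were called lower and 27.6% higher. At an unadjusted p under 0.05 in edgeR, 1 of the 10 genes was higher in each fit, and DESeq2 called 0 higher and 7 lower. The median log2 fold change of the 10 genes was -0.66 without adjustment and -0.33 with it, beside 0.02 for all genes in each fit. ATR, TOPBP1, CLSPN, CHEK1, RAD17 and ETAA1, 6 genes in all, fell in both fits, which 14.9% of all genes did.

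**Figure D1:**
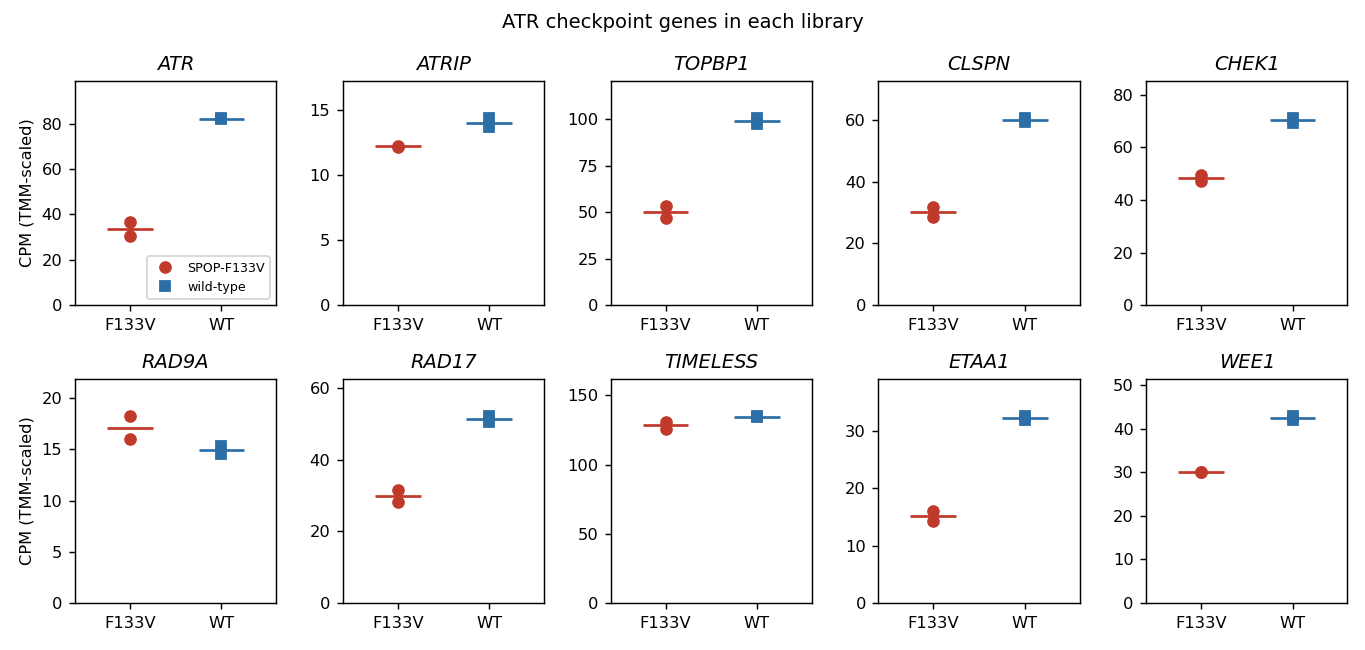
Scaled CPM (vertical axes, starting at 0) of the 10 genes in each F133V library (circles, left) and wild-type library (squares, right), with the mean of each pair as a line. Both F133V values lie below both wild-type values in every panel but RAD9A, which is also so for 37.8% of all tested genes. The widest relative gap is in ATR.

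The kinase itself had the largest unadjusted fall of the 10. ATR (ENSG00000175054.16, chromosome 3, 142449235 to 142578826, minus strand of GRCh38 in GENCODE release 29) was counted 1351 and 1077 times in F133V replicates 1 and 2, against 3221 and 2935 times in wild-type replicates 1 and 2. Scaled, these were 36.8 and 30.5 CPM in F133V cells, against 82.0 and 82.3 CPM in wild-type cells. The wild-type libraries were nearly equal, and F133V replicate 2 was lower than replicate 1. ATR averaged 33.7 ± 4.45 CPM in F133V and 82.1 ± 0.145 CPM in wild-type cells (mean ± SD, n = 2), a fold of 0.41. The log2 fold change was -1.29 ± 0.080 (SE) without adjustment and -0.73 ± 0.046 with it (edgeR BH-adjusted p = 2.22e-10 and 1.53e-16). Only 0.753% of all tested genes had a more negative log2 fold change than ATR without adjustment, and 2.34% with it. The processed pseudogene AC109992.1, on the other strand, covers 2048 of the 12496 exonic bases of ATR, so reads there may not have been assigned to ATR.

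ATRIP, which binds ATR and recruits it to RPA, had a smaller fold change than ATR. ATRIP (ENSG00000164053.21, chromosome 3, 48446710 to 48467645, plus strand) was at 12.2 and 12.2 CPM in F133V cells, against 14.4 and 13.7 CPM in wild-type cells. The groups did not overlap, which was also so, with F133V lower, for 37.8% of all tested genes. The log2 fold change of ATRIP was -0.20 ± 0.089 without adjustment, which did not pass, and -0.43 ± 0.076 with it (edgeR BH-adjusted p = 0.0605 and 8.51e-06). Without F133V replicate 1 or 2 the unadjusted log2 fold changes of ATRIP were -0.24 and -0.20, close to the value from all libraries. Exons of TREX1, on the same strand, cover 1515 of the 5431 exonic bases of ATRIP, so reads there may not have been assigned to 1 gene.

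The clamp loader subunit fell, and the clamp subunit did not pass. RAD17 (ENSG00000152942.19, chromosome 5, 69369293 to 69414801, plus strand), which loads the 9-1-1 clamp, was at 31.5 and 28.1 CPM in F133V cells, against 52.2 and 50.4 CPM in wild-type cells. Both F133V libraries were well under both wild-type libraries. RAD17 had a log2 fold change of -0.79 ± 0.076 without adjustment and -0.32 ± 0.049 with it (edgeR BH-adjusted p = 3.95e-08 and 6.7e-07). The annotation holds the processed pseudogenes RAD17P1 and RAD17P2 on chromosomes 7 and 13, and TAF9 and AK6 overlap its exons on the other strand, so reads from these could be mixed with its own. RAD9A (ENSG00000172613.8, chromosome 11, 67317871 to 67398410, plus strand), a ring subunit of the clamp, was at 16.0 and 18.2 CPM in F133V cells, against 15.4 and 14.5 CPM in wild-type cells. Its log2 fold change was 0.19 ± 0.091 without adjustment and -0.10 ± 0.069 with it, and neither passed (edgeR BH-adjusted p = 0.0768 and 0.226). The unadjusted log2 fold change of RAD9A was 0.26 without F133V replicate 1, and with all libraries it passed as higher under 2 other scalings given in the closing section.

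Both activators of ATR fell. TOPBP1 (ENSG00000163781.14, chromosome 3, 133598175 to 133662380, minus strand) was at 53.6 and 47.2 CPM in F133V cells, against 101 and 97.4 CPM in wild-type cells. Its mean was 50.4 ± 4.55 CPM in F133V and 99.0 ± 2.19 CPM in wild-type cells (mean ± SD, n = 2), a fold of 0.509. TOPBP1 thus had a log2 fold change of -0.97 ± 0.072 without adjustment and -0.65 ± 0.042 with it (edgeR BH-adjusted p = 1.42e-09 and 4.94e-16). ETAA1 (ENSG00000143971.9, chromosome 2, 67397319 to 67412089, plus strand), which activates ATR apart from the clamp, was at 16.1 and 14.3 CPM in F133V cells, against 31.9 and 32.6 CPM in wild-type cells. Its F133V values were under its wild-type values by a margin far wider than the spread of either pair. ETAA1 had a log2 fold change of -1.09 ± 0.083 without adjustment and -0.33 ± 0.060 with it (edgeR BH-adjusted p = 2.16e-09 and 1.21e-05). ETAA1 has the lowest GC content of the 10 transcripts, 33.7%, and its value moved the most between the fits. A called fall of at least 2-fold was seen without adjustment in ATR and ETAA1 among the 10 genes and in 2.81% of all tested genes.

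The mediators differed. CLSPN (ENSG00000092853.14, chromosome 1, 35720218 to 35769967, minus strand), the adaptor that presents CHK1 to ATR, was at 31.8 and 28.5 CPM in F133V cells, against 59.4 and 60.4 CPM in wild-type cells. Its mean was 30.2 ± 2.34 CPM in F133V and 59.9 ± 0.739 CPM in wild-type cells (mean ± SD, n = 2), a fold of 0.504. In log2 terms CLSPN changed by -0.99 ± 0.075 without adjustment and -0.82 ± 0.048 with it (edgeR BH-adjusted p = 1.9e-09 and 2.28e-17), the most negative adjusted value of the 10. TIMELESS (ENSG00000111602.12, chromosome 12, 56416373 to 56449403, minus strand), part of the fork protection complex that travels with the replisome, was at 126 and 131 CPM in F133V cells, against 134 and 135 CPM in wild-type cells. The F133V values of TIMELESS lay just under the wild-type ones. Its log2 fold change was -0.07 ± 0.061 without adjustment, which did not pass, and -0.15 ± 0.036 with it, which did (edgeR BH-adjusted p = 0.353 and 4.24e-04). The unadjusted log2 fold change of TIMELESS was -0.10 without F133V replicate 2.

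The effector kinases fell without adjustment, by smaller fold changes than ATR; such differences between genes were not tested. CHEK1 (ENSG00000149554.13, chromosome 11, 125625136 to 125676255, plus strand) was at 49.4 and 47.2 CPM in F133V cells, against 69.5 and 71.1 CPM in wild-type cells, a fold of 0.687. CHEK1 had a log2 fold change of -0.54 ± 0.068 without adjustment and -0.15 ± 0.044 with it (edgeR BH-adjusted p = 1.22e-06 and 0.00355). The adjusted call was lost without wild-type replicate 2 (log2 fold change -0.14, edgeR BH-adjusted p = 0.0764). WEE1 (ENSG00000166483.12, chromosome 11, 9573681 to 9593457, plus strand) was at 30.0 and 30.1 CPM in F133V cells, against 42.1 and 42.9 CPM in wild-type cells. Its libraries agreed closely within each genotype. The log2 fold change of WEE1 was -0.50 ± 0.072 without adjustment, a fall that passed, and 0.12 ± 0.054 with it, which did not pass (edgeR BH-adjusted p = 7.36e-06 and 0.0664). Without F133V replicate 1 the adjusted log2 fold change of WEE1 was 0.17, so no direction for WEE1 held across the fits.

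**Figure D2:**
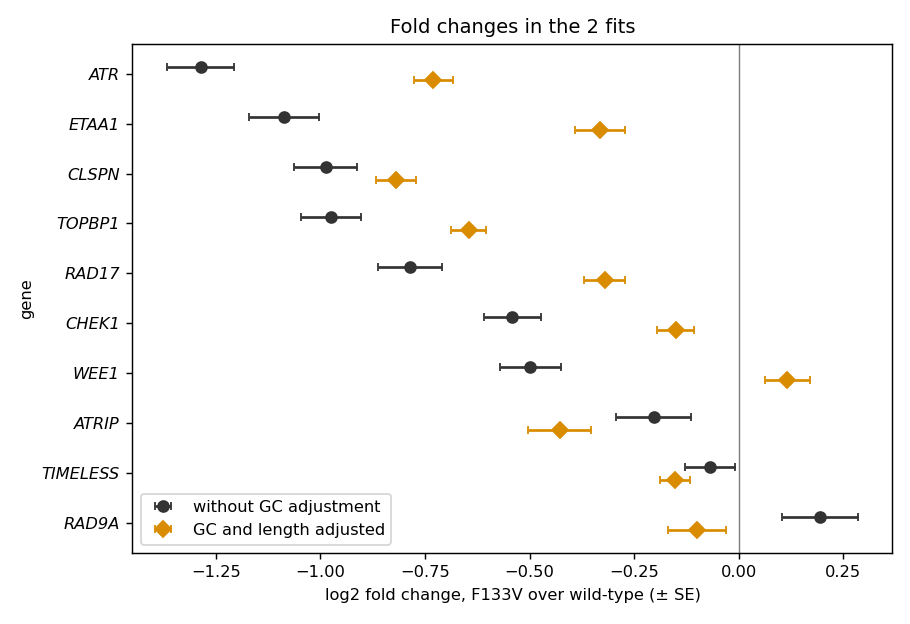
Log2 fold change of each gene, F133V over wild-type (horizontal axis, bars are ± SE), without adjustment (circles) and with GC content and length adjusted (diamonds). ATR, TOPBP1 and CLSPN stay below -0.6 in both fits, while WEE1 and RAD9A lie on opposite sides of 0 in the 2 fits.

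Part of the spread among the 10 genes followed GC content. GC content of the longest transcript ran from 33.7% in ETAA1 to 60.6% in RAD9A, with a median of 42.1%, beside 48.1% in 11763 expressed genes. Across the 10 genes the unadjusted log2 fold change and GC content gave Spearman rho 0.67 and Pearson r 0.80; the points share libraries, so this is a description. The adjusted values gave rho -0.01 and r 0.10. Expressed genes were divided into 10 bins of GC content, and each of the 10 genes was set beside the middle 50% of its own bin. Without adjustment 7 genes lay below that range and 3, CHEK1, RAD9A and WEE1, lay within it. With adjustment ATR, ATRIP, TOPBP1, CLSPN, RAD17 and ETAA1 lay below the range, and TIMELESS joined the genes within it. ATR had a log2 fold change of -1.29 where the middle 50% of its bin ran from -0.74 to -0.27, and CLSPN -0.99 where it ran from -0.40 to 0.0037. WEE1 had -0.50 where its bin ran from -0.88 to -0.44.

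**Figure D3:**
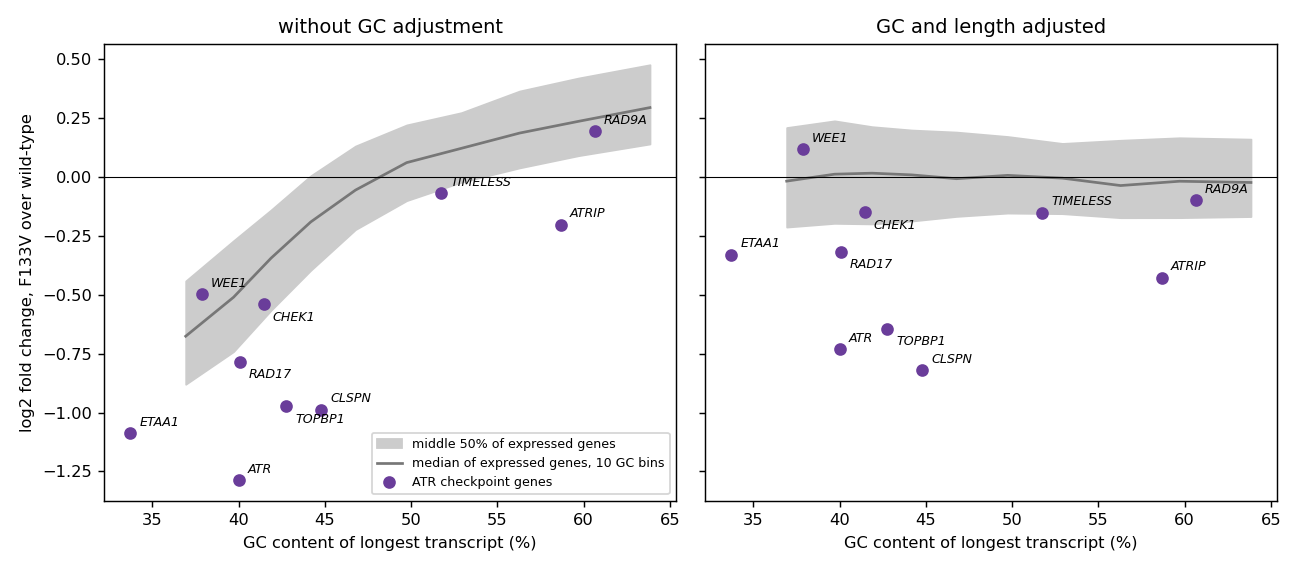
Log2 fold change (vertical axis, F133V over wild-type) against GC content of the longest transcript (horizontal axis, %), without adjustment on the left and with GC content and length adjusted on the right. Points are the 10 checkpoint genes, the line is the median and the band the middle 50% of expressed genes in 10 GC bins; CLSPN, TOPBP1 and ATR lie under the band in both panels.

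The F133V replicates themselves differed in the same way. The log2 CPM of replicate 2 minus replicate 1 ran from -0.27 in ATR to 0.19 in RAD9A in F133V cells, and from -0.08 in RAD9A to 0.03 in CHEK1 in wild-type cells. Genes of low GC content were mostly lower in F133V replicate 2 (Spearman rho 0.58 across the 10 genes, a description). ATR nonetheless fell in the fit without either F133V library, with log2 fold changes of -1.46 without replicate 1 and -1.16 without replicate 2.

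Levels were compared between genes per kilobase of the longest transcript. Reads can also come from exons outside that transcript (RAD9A has 4169 exonic bases, and its longest transcript 2119), so the order of genes is approximate. TIMELESS had the highest level, 24.6 and 25.5 CPM per kilobase in F133V cells, against 26.2 and 26.4 in wild-type cells. CHEK1 followed with 11.6 ± 0.367 CPM per kilobase in F133V cells and 16.9 ± 0.269 in wild-type cells (mean ± SD, n = 2, here and in the rest of the paragraph). In wild-type cells TOPBP1 and RAD17, at 16.1 ± 0.356 and 15.9 ± 0.377 CPM per kilobase, did not differ beyond their spread. ATRIP was the lowest, at 2.67 ± 0.0073 CPM per kilobase in F133V cells and 3.07 ± 0.0979 in wild-type cells. ETAA1 came next, at 2.67 ± 0.226 CPM per kilobase in F133V cells and 5.67 ± 0.0774 in wild-type cells, so that in F133V cells it did not differ from ATRIP beyond its spread. ATR ranked 8 of 10 by level in F133V cells and 6 of 10 in wild-type cells, and RAD9A ranked 5 in F133V cells and 8 in wild-type cells. These levels were not adjusted for GC content, so shifts in rank between genotypes carry the GC trend, and RAD9A passed in neither fit.

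Ratios between partner mRNAs within a library do not depend on how libraries are scaled, although they do carry the GC trend. The reads per kilobase of ATR over those of ATRIP gave ratios of 1.67 and 1.39 in F133V replicates 1 and 2, against 3.17 and 3.33 in wild-type replicates 1 and 2. The ATR to ATRIP log2 ratio was lower in F133V cells by a difference of -1.09, or -0.31 with GC and length adjusted. CLSPN over TIMELESS gave 0.272 and 0.234 in F133V cells, against 0.476 and 0.481 in wild-type cells, a log2 difference of -0.92, or -0.67 adjusted. TOPBP1 over RAD9A gave 1.16 and 0.890 in F133V cells, against 2.25 and 2.31 in wild-type cells. The CHEK1 over WEE1 ratio was 2.05 and 1.96 in F133V cells, against 2.06 and 2.07 in wild-type cells, a log2 difference of -0.04, or -0.27 adjusted. TOPBP1 over ETAA1, the activators, gave 3.08 and 3.06 in F133V cells, against 2.91 and 2.77 in wild-type cells, a log2 difference of 0.11, or -0.32 adjusted. In each of the 7 pairs plotted both F133V libraries lay on the same side of both wild-type libraries. For CHEK1 over WEE1 the nearest values were 2.05 and 2.06. Some genes stand in more than 1 pair, and how often other gene pairs separate in this way was not counted, so this is a description. TOPBP1 over ETAA1 was the 1 pair of the 7 that was higher in F133V cells without adjustment. The differences in these ratios were not tested.

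**Figure D4:**
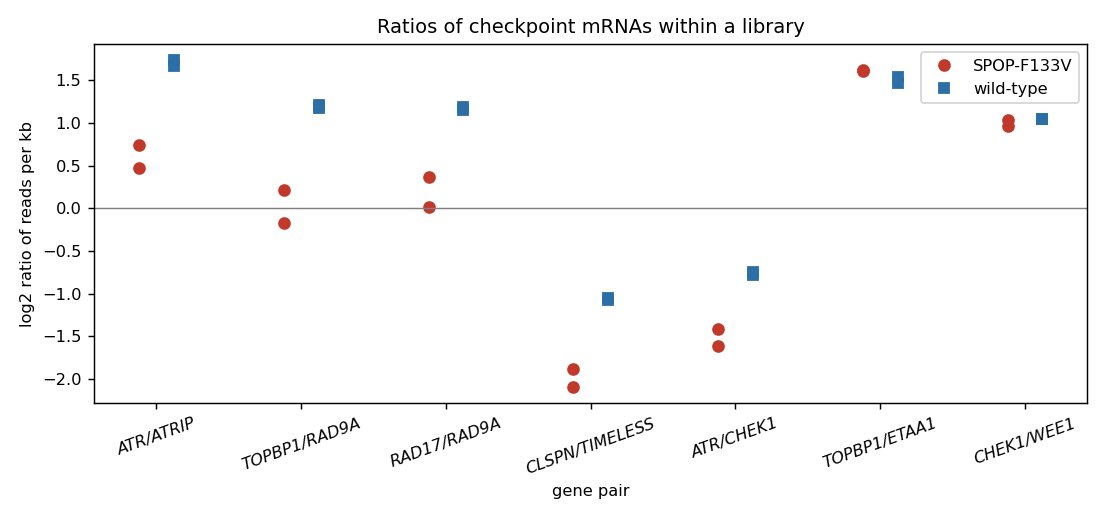
Log2 ratio of reads per kilobase (vertical axis) for 7 pairs of checkpoint genes (horizontal axis) in F133V libraries (circles, left of each pair's tick) and wild-type libraries (squares, right). ATR over ATRIP, TOPBP1 over RAD9A, RAD17 over RAD9A, CLSPN over TIMELESS, ATR over CHEK1 and, by a narrow margin, CHEK1 over WEE1 are lower in both F133V libraries than in both wild-type libraries, and TOPBP1 over ETAA1 is higher in both.

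Promoter sequences of the genes are shown because CLSPN and ATR had the largest adjusted falls while TIMELESS, also a mediator, moved little. Windows from 250 bases before to 50 after each annotated start were taken from RefSeq (GRCh38.p14), and 9 of the 10 genes had at least 1; none is given for WEE1. They were searched on both strands for the E2F letters TTTCCCGC or TTTGGCGC, the cell cycle homology region (TTTGAA or TTCGAA) and the CCAAT box. None of these contains another, and other spellings of the E2F site were not searched. The stretches below run from 130 bases before the start to the 10 bases from it, on the gene's strand, with matches in capitals. They lie at chr1:35769969-35770108 (CLSPN, minus strand), chr3:142578724-142578863 (ATR, minus strand) and chr12:56449417-56449556 (TIMELESS, minus strand).
CLSPN: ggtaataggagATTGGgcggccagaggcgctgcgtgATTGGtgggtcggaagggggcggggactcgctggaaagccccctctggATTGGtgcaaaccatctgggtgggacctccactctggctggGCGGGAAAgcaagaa
ATR: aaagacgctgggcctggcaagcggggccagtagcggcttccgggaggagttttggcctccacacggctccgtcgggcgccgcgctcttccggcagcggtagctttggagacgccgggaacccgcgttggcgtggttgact
TIMELESS: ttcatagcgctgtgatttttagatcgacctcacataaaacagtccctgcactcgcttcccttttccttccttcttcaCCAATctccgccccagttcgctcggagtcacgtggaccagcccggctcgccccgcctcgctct
CLSPN held 1 E2F match, across its start site, and 3 CCAAT matches on the opposite strand. It was the only one of the 9 genes with these E2F letters, which 2.26% of 34943 RefSeq windows hold. CCAAT was found in CLSPN, ATRIP, CHEK1, RAD9A, RAD17, TIMELESS and ETAA1, and in 34.6% of all windows. The cell cycle homology letters were found in RAD17 alone of these genes, in window 2 of its 3, and in 16.4% of all windows. Window 1 of RAD17 (68.0% GC) held no match, and its CCAAT matches lay in windows 2 and 3 (31.3% and 31.0% GC). ATRIP, CHEK1 and RAD17 had more than 1 window each, so a match in these genes is not like for like with a share per window. ATR and TOPBP1 held no match to the letters searched, which does not show that they lack an E2F site. CCAAT thus stands in promoters of genes that fell and of genes that did not pass.

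Other genes of the pathway mostly moved the same way. Of 40 genes in 4 lists around the checkpoint, 25 fell and 1 rose without adjustment, and 24 fell and 2 rose with it (edgeR BH-adjusted). Of all tested genes, 27.6% fell and 27.2% rose without adjustment, and 24.5% fell and 27.6% rose with it. Each list below is to be read beside these shares. The lists also differ in median GC content, from 41.6% in the fork protection and remodelling genes to 49.6% in the CHK1 and WEE1 outputs and regulators. Their unadjusted counts and medians are therefore not alike in how far they carry the GC trend. Among the RPA, 9-1-1 clamp and clamp loader genes, 5 of 10 fell and 0 rose without adjustment, with a median log2 fold change of -0.15; at an unadjusted edgeR p under 0.05, and in DESeq2, 0 were higher. RFC3, a small clamp loader subunit, fell most of them, to 26.2 ± 0.0165 CPM in F133V cells, against 49.8 ± 0.813 CPM in wild-type cells (mean ± SD, n = 2). RFC4 and RHNO1, which binds the 9-1-1 clamp and TOPBP1, fell in both fits as well, with unadjusted log2 fold changes of -0.36 and -0.41. RAD1, a ring subunit beside RAD9A, fell without adjustment (-0.19) and rose with it (0.18). RPA1, the large RPA subunit, had 0.04 in each fit and did not pass.

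In the list of fork protection and remodelling genes 9 of 10 fell and 0 rose without adjustment, with a median of -0.59, and 7 fell and 0 rose with it, with a median of -0.25; at an unadjusted edgeR p under 0.05, and in DESeq2, 0 were higher. BRCA1 was at 46.2 ± 5.49 CPM in F133V and 97.7 ± 0.230 CPM in wild-type cells (mean ± SD, n = 2), a log2 fold change of -1.08 or -0.67 adjusted. WDHD1, a replisome protein, had -1.05 or -0.43 adjusted, and FANCM, a fork remodelling translocase, -1.09 or -0.43 adjusted. TIPIN, the obligate partner of TIMELESS, had -0.52 or -0.18 adjusted.

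In the list of CHK1 and WEE1 outputs and regulators, 4 of 10 fell and 1 rose without adjustment (median -0.12), and 5 fell and 0 rose with it (median -0.11; 1 was higher at an unadjusted edgeR p under 0.05, and DESeq2 without adjustment called 1 higher). Of all tested genes 27.6% were called lower without adjustment and 24.5% with it, so 4 of 10 without adjustment is not far above that share. CDC25A, the phosphatase that CHK1 targets for destruction, fell in both fits (-0.28 and -0.38), and USP7, a deubiquitinase, did so too (-0.26 and -0.14). CDC25B rose without adjustment only (0.25, and 0.01 adjusted). CDK1 fell without adjustment only (-0.63, and -0.05 adjusted).

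Most of the parallel ATM branch also fell, beside 27.6% of all tested genes called lower without adjustment and 24.5% with it. Of its 10 genes 7 fell and 0 rose without adjustment (median -0.42; 0 higher at an unadjusted edgeR p under 0.05 and in DESeq2), and 7 fell and 1 rose with it (median -0.29). ATM was at 41.0 ± 3.28 CPM in F133V and 78.7 ± 1.33 CPM in wild-type cells (mean ± SD, n = 2), a log2 fold change of -0.94 or -0.30 adjusted. NBN (-0.92 or -0.29 adjusted) and MRE11 (-0.90 or -0.28 adjusted), which with RAD50 sense broken ends, fell in both fits. RAD50 did so too (-1.34 or -0.88 adjusted), with a more negative value in each fit than any of the 10 checkpoint genes. It had only 46 and 59 reads in F133V cells, against 150 and 127 in wild-type cells, which limits its precision. RNF8, a ubiquitin ligase, was the gene that rose in the adjusted fit (0.16). CHEK2, the ATM branch's counterpart to CHEK1, had 0.11 and 0.03 and did not pass in either.

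Among the other PI3K-like kinases, relatives of ATR with very long transcripts, ATM, SMG1 and PRKDC fell in both fits, and MTOR and TRRAP passed as lower only with adjustment. SMG1, a nonsense-mediated decay kinase, had -0.86 or -0.50 adjusted, and PRKDC, the catalytic subunit of DNA-PK, had -0.57 or -0.34 adjusted. The adjusted value of ATR, -0.73, was below all 5 of them. None of 16 genes of S phase at large had a value as negative as ATR, TOPBP1 or CLSPN in either fit. Of these 16 10 fell and 2 rose without adjustment (median -0.21), and 11 fell and 0 rose with it (median -0.17; 1 was higher at an unadjusted edgeR p under 0.05, and DESeq2 without adjustment called 2 higher). The share of all tested genes called lower was 27.6% without adjustment and 24.5% with it. CDC6, an origin licensing factor, had the most negative adjusted value of the 16 (-0.50), whereas E2F1 (0.29) and CDT1 (0.39) rose without adjustment and did not pass with it. How far these lists differ from the 10 genes was not tested.

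**Figure D5:**
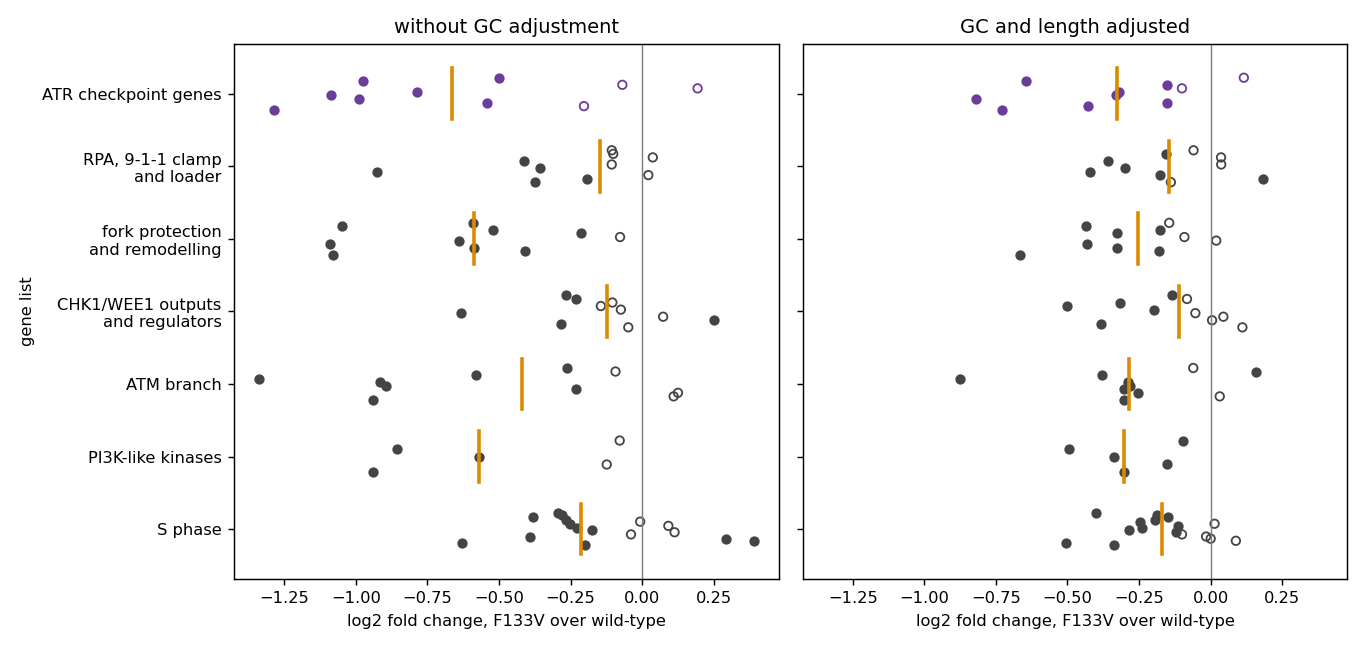
Log2 fold change, F133V over wild-type (horizontal axes), of the 10 checkpoint genes and of 6 related lists (rows), without adjustment on the left and with GC content and length adjusted on the right. Filled points passed at a BH-adjusted p under 0.05, open points did not, and vertical bars are list medians; the medians of all 7 groups are below 0 in both panels.

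The genes whose 4 library values most resembled the mean profile of the 10 genes, by Euclidean distance between log2 CPM profiles centred on their own mean over 4 libraries, were NUDT12, CDK17, SNHG14, GK5 and EIF2S1, with distances from 0.0127 to 0.0205. CDK17 was at 36.0 and 33.7 CPM in F133V cells, against 54.1 and 53.8 CPM in wild-type cells. These 5 genes had unadjusted log2 fold changes between -0.65 and -0.62, which follow from how they were chosen. Their adjusted values ran from -0.39 in SNHG14 to 0.09 in NUDT12.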

How the data were processed

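RNA was sequenced from 2 SPOP-F133V and 2 wild-type DU145 libraries as single reads of 75 bases, per the labels' protocols. The deposited tables hold raw counts of reads for each gene; TopHat2 2.0.10, HTSeq 0.6.0 and hg38 are named per the submitters' processing notes. The annotation release was not given in the sources used here, nor was the use of strand, and overlapping genes may therefore share or lose reads. Reads over no gene (6.12% to 6.53% of each table), over several genes (3.50% to 3.73%) or aligned more than once (13.6% to 16.6%) stayed out of library sizes and tests. Symbols were matched for 60444 of 60614 IDs; GENCODE release 29 gave positions, lengths and GC content.

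The main test was edgeR 4.0.16 under R 4.3.3 (filterByExpr, TMM, quasi-likelihood F-test, two-sided, BH over all tested genes, threshold 0.05). Each SE is the fold change over the square root of F. For the adjusted fit, mgcv 1.9.3 smoothed the log2 deviations of each library on log2 length and GC content (basis 8, over genes with mean log2 CPM above 2), and the smooth entered as an offset. DESeq2 1.42.0, other scalings, no filter, a replicate block and leaving out each library were alternatives. Replicates differed by more than sampling noise (chi-square over degrees of freedom 7.68 in F133V and 1.64 in wild-type cells). The 10 genes, the lists and the adjustment were chosen with earlier results of these data known. All 10 genes are named; of each list, up to 6 members called the same way in both fits, by lowest adjusted p of the unadjusted fit, and members that did not pass or went the other way where these were 3 or fewer. RAD1, RPA1, CDC25B, CDK1, RNF8, CHEK2, E2F1 and CDT1 fall outside this rule and were chosen after their values were seen.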

Additional observations from a re-analysis of the deposited data

How the results depend on the processing

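ATR, TOPBP1, CLSPN, RAD17 and ETAA1 were lower and past the threshold in the unadjusted fit and in all 17 alternatives. Of the 10 genes, the number called lower stayed within 1.5 times its unadjusted value of 7 in every alternative, from 7 to 9 without 1 library and from 7 to 8 when GC and length were adjusted as well. RAD9A, 0.19 in the unadjusted fit, was -0.10 with GC and length adjusted, -0.070 with GC alone, -0.16 with the adjustment as first specified in the earlier analysis, which passed as lower (edgeR BH-adjusted p = 0.0437), and -0.13 to -0.065 with GC and length adjusted and 1 library left out. WEE1, -0.50 in the unadjusted fit, gave 0.12, 0.12, 0.071 and 0.027 to 0.17 in the same order (0.11 without wild-type replicate 1). TIMELESS was 0.042 with upper-quartile scaling. The number of the 10 genes called higher, 0 in the unadjusted fit, was 1 with upper-quartile scaling and 1 with library size alone, in each case RAD9A (log2 fold change 0.30 and 0.22, edgeR BH-adjusted p = 0.0063 and 0.0464), and 0 to 1 without 1 library. Of the 40 genes in 4 pathway lists, 1 was called higher in the unadjusted fit, 2 with GC and length or GC alone adjusted, 5 with upper-quartile scaling, 0 to 2 without 1 library and 1 to 4 with GC and length adjusted and 1 library left out. Over all genes, 4763 were higher and 4841 lower in the unadjusted fit, 6462 and 3831 with upper-quartile scaling, which moved the median log2 fold change from 0.02 to 0.13. Genes called in all numbered 9604, and 6337 to 10856 without 1 library. Where an alternative leaves a genotype with 1 library, that library is assumed to vary like the other genotype's. Without an F133V library the spread thus came from the wild-type pair alone, which differed less (chi-square over degrees of freedom 1.64, against 7.68 in F133V). Calls from those fits may therefore be too many.

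The labels give both genotypes replicates 1 and 2, but the deviations of same-numbered libraries did not go together (r -0.05 over 11788 genes), so the numbers were not taken as pairs. With the replicate number as a block 9365 genes were called, 4619 higher and 4746 lower, and 7 of the 10 genes were lower. With the block and GC and length adjusted RAD9A gave -0.10, WEE1 0.12 and 2 of the 40 pathway genes were higher. ATRIP and RAD9A had 430 to 644 reads per library, which limits their precision, and ETAA1 had 590 and 503 in the F133V libraries. The cause of these changes between settings was not tested.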
